A study of Mus musculus with 27 samples.

Results

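The unfolded protein response is the set of signals by which a cell adjusts its endoplasmic reticulum (ER) to the load of proteins folded there, and 10 of its genes were followed in mouse colon. They were the transcription factors Xbp1, Atf4 and Ddit3, the chaperones and folding enzymes Hspa5, Hsp90b1, Pdia6 and Dnajb9, the degradation components Sel1l and Herpud1, and the Atf4 target Asns. The genes were chosen by name, with earlier results of these data known, so counts among them are descriptions. All 10 were found among the 35975 genes counted and passed the filter on low counts in every comparison.

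Poly(A) RNA was sequenced from 1 cm pieces of whole proximal and distal colon of control mice and of mice in which Foxa1 and Foxa2, a pair of forkhead transcription factors, were deleted in gut epithelium. There were 27 libraries from 14 mice of mixed background, 13 of which gave both segments: 7 control and 7 deficient libraries in proximal colon, 6 control and 7 deficient in distal colon. The 7 deficient mice carried Villin1-Cre, a recombinase made in intestinal epithelium, with Foxa1lox/lox and Foxa2lox/lox, were 9 to 13 months old, and 2 of them were labelled female. The 7 control mice were all labelled male and 9 to 18 months old. Of these, 5 carried Foxa1lox/lox and Foxa2lox/lox without Cre, 1 (replicate 1) carried Villin1-Cre with Foxa1lox/wt and Foxa2lox/wt, and 1 (replicate 6) carried Villin1-Cre with Foxa1lox/lox and Foxa2lox/wt.

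In the textbook scheme, 3 kinds of sensor sit in the ER membrane. The kinase and nuclease IRE1 (genes Ern1 and Ern2) splices Xbp1 mRNA, the kinase PERK (gene Eif2ak3) slows translation and raises the Atf4 protein, and Atf6 is cut loose and enters the nucleus. Together they raise chaperones, the machinery that removes misfolded proteins, and genes of amino acid supply. In the intestine this machinery serves secretory cells above all, among them the mucus-producing goblet cells, and Ern2 is an IRE1 form of mucus-secreting epithelium.

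Short sequences are known through which these factors act, and they were looked up in RefSeq promoters of the GRCm38.p6 build, in 250 bases before to 50 bases after the start of each gene and on both strands. All 10 genes had a promoter in a table of 32851. The ER stress element, spelled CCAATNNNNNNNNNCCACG and read by Atf6 and Xbp1, was found in 3 of the 10 promoters and in 0.119% of all promoters of this length. The related element ATTGGNCCACG was found in the Herpud1 promoter and in 0.0365% of all. The Atf4 element, spelled TGATGNAA, was found in Asns and Herpud1 and in 3.97% of all. The letters TGACGTGG, an Xbp1 element, were in 0 of the 10 and in 0.676% of all, and the forkhead letters TGTTTAC were in 0 of the 10 and in 3.65% of all. No matched stretches overlapped. A match is a description of letters and no evidence of binding. The 5 promoters with a match are shown because their genes carry the comparisons below, as the 250 bases before the start, 5′ to 3′ on the strand of the gene, with the matched letters in capitals.

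Hspa5 (chr2:34771840-34772089, plus strand): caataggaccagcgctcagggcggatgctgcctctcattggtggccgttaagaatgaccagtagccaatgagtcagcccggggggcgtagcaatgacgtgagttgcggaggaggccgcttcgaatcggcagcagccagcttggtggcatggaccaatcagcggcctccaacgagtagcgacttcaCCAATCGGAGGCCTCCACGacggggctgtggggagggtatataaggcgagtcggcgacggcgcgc
Hsp90b1 (chr10:86705445-86705694, minus strand): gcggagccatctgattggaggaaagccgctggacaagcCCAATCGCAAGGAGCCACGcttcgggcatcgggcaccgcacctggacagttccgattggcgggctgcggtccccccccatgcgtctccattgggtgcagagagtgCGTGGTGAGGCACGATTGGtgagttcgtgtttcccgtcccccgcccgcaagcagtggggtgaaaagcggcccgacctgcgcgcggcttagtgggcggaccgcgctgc
Pdia6 (chr12:17266339-17266588, plus strand): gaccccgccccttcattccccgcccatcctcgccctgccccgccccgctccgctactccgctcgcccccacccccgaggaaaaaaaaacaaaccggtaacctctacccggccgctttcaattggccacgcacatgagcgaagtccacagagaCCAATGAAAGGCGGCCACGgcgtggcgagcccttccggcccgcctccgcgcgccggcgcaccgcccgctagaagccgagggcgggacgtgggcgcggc
Herpud1 (chr8:94386179-94386428, plus strand): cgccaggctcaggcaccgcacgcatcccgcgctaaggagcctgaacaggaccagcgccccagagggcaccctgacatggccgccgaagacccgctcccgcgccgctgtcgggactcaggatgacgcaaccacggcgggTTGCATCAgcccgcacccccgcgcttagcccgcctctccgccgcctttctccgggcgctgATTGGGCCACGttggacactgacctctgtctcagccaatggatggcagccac
Asns (chr6:7693210-7693459, minus strand): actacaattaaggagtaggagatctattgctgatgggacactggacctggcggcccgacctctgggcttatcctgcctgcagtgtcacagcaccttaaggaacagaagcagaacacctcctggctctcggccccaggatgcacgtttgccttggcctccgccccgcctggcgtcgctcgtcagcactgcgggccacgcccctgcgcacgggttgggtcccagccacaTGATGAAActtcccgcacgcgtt

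In Hspa5 the element lay at bases -65 to -47 before the start, and in Pdia6 at -98 to -80. Hsp90b1 had a match at -212 to -194 and another, on the opposite strand, at -107 to -89. In Herpud1 the ATTGGNCCACG letters lay at -52 to -42 and the Atf4 element, on the opposite strand, at -112 to -105. Asns had the Atf4 element at -23 to -16.

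The libraries held 18472867 to 56744113 estimated counts, with a median of 40556273. Levels are CPM, counts scaled to a common library size, on a single normalized scale over all libraries. The targeted genes were lower in deficient mice: Foxa1 by a log2 fold change of -2.24 (SE 0.25) in proximal and -2.48 (SE 0.36) in distal colon, Foxa2 by -2.67 (SE 0.20) and -4.49 (SE 0.26). The libraries of control replicate 6, the control mouse with Villin1-Cre and Foxa1lox/lox, had Foxa1 at the level of deficient mice. It was at 13.92 CPM (proximal) and 7.603 CPM (distal), within the 7.207 to 14.51 CPM of deficient libraries. Deficient replicate 3, labelled male, had summed Y-linked transcripts of 2.983 and 3.59 CPM, in the range of the mice labelled female (2.609 to 6.273 CPM). Markers of exocrine pancreas summed to 301.6 CPM in distal control replicate 4 and to 26.11, 1151 and 409.1 CPM in distal deficient replicates 2, 4 and 5, against at most 2.413 CPM elsewhere. Epithelial markers, by contrast, were high in every library (summed 10950 to 24690 CPM). Since these are bulk tissue samples, fewer cells of a type and less RNA per cell cannot be told apart.

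Per unit of transcript length, in the deposited TPM, the chaperones Hspa5 and Hsp90b1 were the most abundant of the 10 genes in each of the 4 groups. Hspa5, the main ER chaperone of the Hsp70 family, had a median of 381.4 TPM in proximal control libraries (362.6 to 463.2). Hsp90b1, the ER form of Hsp90, stood beside it at 333.7 TPM (321.1 to 414.5), and the ranges of this pair overlapped in every group. Xbp1 followed at 187.0 TPM (158.9 to 225.1) and its range lay below those of both chaperones in each group. The lower end of the order in proximal control colon was held by Asns at 30.59, Ddit3 at 24.72, Sel1l at 23.36 and Pdia6 at 18.06 TPM, neighbours whose ranges overlapped. In distal control colon Pdia6 was instead the sixth of 10, at 83.09 TPM (60.55 to 128.4), and Asns the last at 18.68 TPM (12.7 to 27.25).

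**Figure D1:**
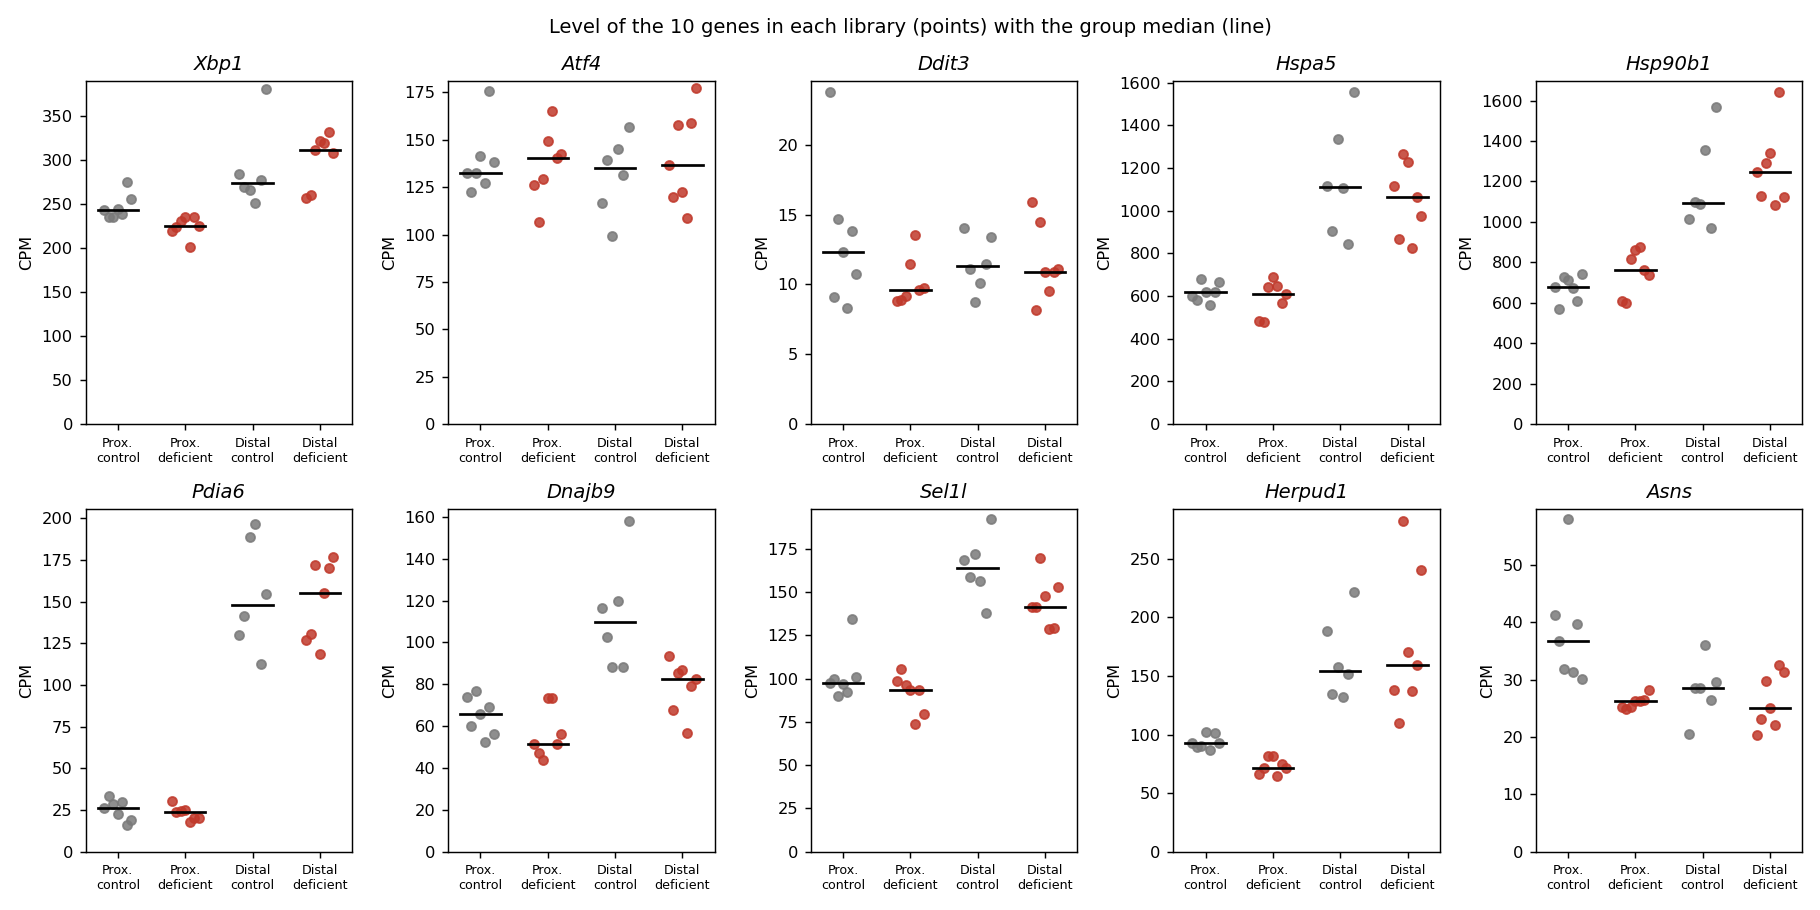
Level of each of the 10 genes in CPM (vertical axes, starting at 0) in every library (points) of the 4 groups, grey for control and red for deficient mice, with the group median as a line. Herpud1 and Asns do not overlap between genotypes in proximal colon, and Pdia6 is at 15.93 to 33.41 CPM in proximal and 112.7 to 196.7 CPM in distal libraries.

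The comparison of deficient with control mice in proximal colon asks how the levels of these genes stand in that segment when epithelial Foxa1 and Foxa2 are lost. Herpud1 and Asns fell, and the chaperones, the transcription factors and Sel1l did not pass the test. Herpud1 encodes an ER membrane protein that assembles the degradation complex, and Asns is asparagine synthetase, a classical target of Atf4. Of all 16787 genes tested, 11.7% were called, and 6.17% of all genes were called as lower, beside which stand 2 lower genes among the 10. The median log2 fold change of the 10 genes was -0.13, and that of all genes 0.01.

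Herpud1 (ENSMUSG00000031770.16, chromosome 8, 94386438 to 94395377, plus strand, GRCm38) had a median of 92.4 CPM and a range of 86.77 to 102.2 CPM over 7 control libraries. In the 7 deficient libraries it was at 64.52 to 81.63 CPM, with a median of 71.81. Every deficient library was below every control library. The log2 fold change was -0.34 (SE 0.07, edgeR quasi-likelihood test, adjusted p = 0.00246), a level 0.793 times that of controls.

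Asns (ENSMUSG00000029752.12, chromosome 6, 7675169 to 7693254, minus strand) was at 30.21 to 57.94 CPM in control libraries, with a median of 36.76. The deficient libraries were packed between 24.88 and 28.18 CPM, with a median of 26.34. Again the groups did not overlap, and the spread among deficient mice (SD 1.118, n = 7) stood beside a wider one among controls (SD 9.605, n = 7), whose highest library was replicate 4. The log2 fold change was -0.54 (SE 0.12, edgeR, adjusted p = 0.00534), a level 0.688 times that of controls. Both calls held under each of 24 alternatives, with log2 fold changes from -0.37 to -0.30 for Herpud1 and from -0.68 to -0.42 for Asns. Among mice labelled male, deficient replicate 3 included, the values were -0.30 and -0.57. Among mice of 9 to 13 months they were -0.35 and -0.68, and without control 6 and deficient 3 they were -0.34 and -0.52.

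The transcription factors stood differently. Xbp1 (chromosome 11, 5520659 to 5525893, plus strand), whose spliced form drives chaperone and secretory genes, was at 235.3 to 274.6 CPM in control and 200.7 to 235.1 CPM in deficient libraries. The groups touched without overlapping, with a log2 fold change of -0.12 (95% interval -0.25 to 0.01, edgeR, adjusted p = 0.244). Atf4 (chromosome 15, 80255184 to 80257541, plus strand), which is regulated mainly through its translation, was at 122.3 to 175.7 CPM in control and 106.8 to 165.3 CPM in deficient libraries, a log2 fold change of 0.00 (-0.20 to 0.21). Ddit3 (chromosome 10, 127290774 to 127296288, plus strand), the factor also called CHOP, was at 8.315 to 23.78 CPM in control and 8.795 to 13.53 CPM in deficient libraries. Its log2 fold change of -0.36 (-0.78 to 0.06) became -0.17 without control replicate 1, the library at 23.78 CPM.

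The folding genes overlapped between genotypes. Hspa5 (chromosome 2, 34771970 to 34777547, plus strand) was at 557.7 to 679.9 CPM in control and 479.2 to 689.2 CPM in deficient libraries, a log2 fold change of -0.05 (95% interval -0.25 to 0.14). Hsp90b1 (chromosome 10, 86690209 to 86705509, minus strand) had the highest positive value of the 10, 0.18 (-0.04 to 0.39, edgeR, adjusted p = 0.332), with 570.1 to 742.2 CPM against 596.3 to 877.4. The disulphide isomerase Pdia6 (chromosome 12, 17266545 to 17284770, plus strand) was at -0.09 (-0.42 to 0.23). Dnajb9 (chromosome 12, 44205559 to 44210326, minus strand), a co-chaperone of Hspa5 that holds IRE1 in check, was at -0.18 (-0.45 to 0.09). Sel1l (chromosome 12, 91806043 to 91849157, minus strand), the adaptor of the degradation ligase, was at -0.13 (-0.34 to 0.07). The intervals of Pdia6, Dnajb9 and Sel1l reach down to the -0.34 measured for Herpud1, so a fall of that size was not excluded for them.

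**Figure D2:**
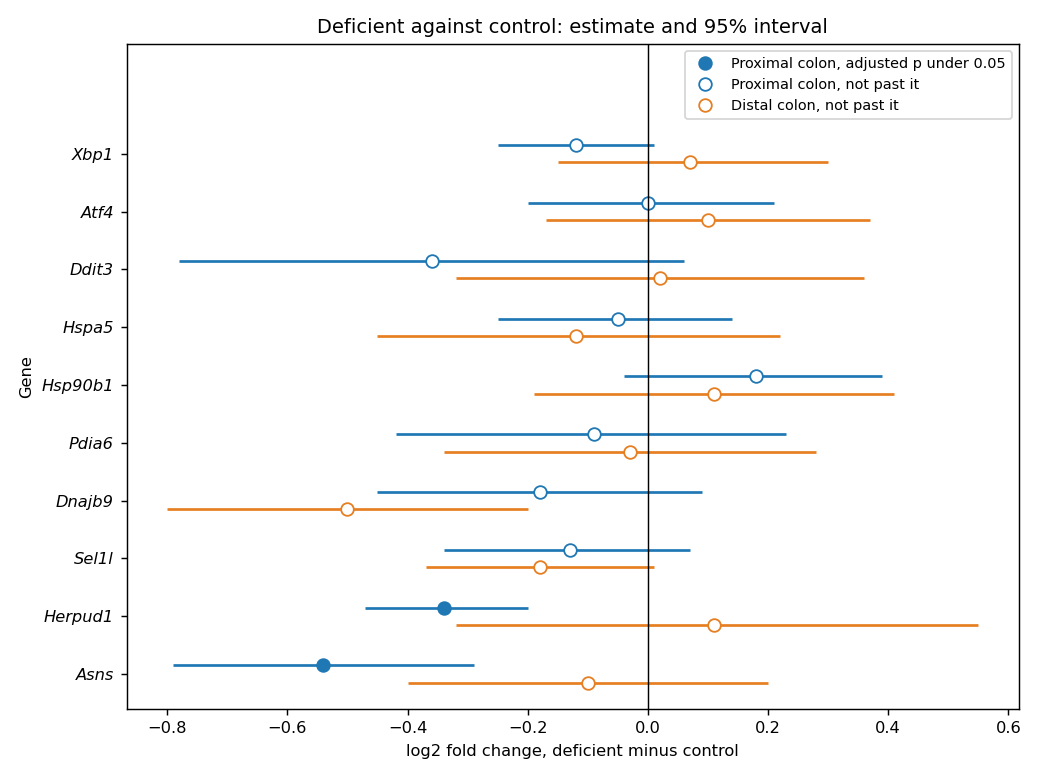
Log2 fold change of deficient against control mice (horizontal axis) for each of the 10 genes, in proximal colon (blue) and distal colon (orange), with 95% intervals and filled points for an adjusted p under 0.05. The filled points are Herpud1 at -0.34 and Asns at -0.54 in proximal colon, and the distal interval of Dnajb9 runs from -0.80 to -0.20.

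In distal colon 0 of the 10 genes passed the same test, where 6.07% of 16041 genes were called at the adjusted threshold. The share of all genes at the looser cut of an unadjusted p under 0.05 was not computed. Among the 10 genes, 1 was under that cut by edgeR. That gene was Dnajb9, at 88.06 to 158.2 CPM (median 109.5) in control and 56.7 to 93.75 CPM (median 82.38) in deficient libraries. All 7 deficient libraries were below the control median, and the groups overlapped. Its log2 fold change was -0.50 (SE 0.14), with an unadjusted p = 0.00325 and an adjusted p = 0.0524 by edgeR. With DESeq2 the adjusted p was 0.0274, over all 24 alternatives it ran from 0.0274 to 0.217, and without the 3 libraries of highest pancreas markers (control 4, deficient 4 and 5) the log2 fold change was -0.43 and the adjusted p = 0.191.

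The 2 genes that fell in proximal colon were not lower in distal colon by this test. Herpud1 was at 132.1 to 221.3 CPM in distal control and 110.2 to 281.9 CPM in distal deficient libraries, with a log2 fold change of 0.11 (95% interval -0.32 to 0.55). The high end was set by deficient replicates 3 and 7, at 281.9 and 240.5 CPM, while the other 5 lay at 110.2 to 170.3 CPM. Asns was at 20.5 to 36.08 CPM in distal control and 20.4 to 32.64 CPM in distal deficient libraries, a log2 fold change of -0.10 (-0.40 to 0.20). The remaining genes lay between -0.18 for Sel1l (-0.37 to 0.01) and 0.11 for Hsp90b1 (-0.19 to 0.41).

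Whether the genotype effect differed between segments was tested in 13 mice with both segments. By edgeR and by DESeq2 alike 0 of the 10 genes passed, where edgeR called 1.01% of 17595 genes at the adjusted threshold. At the looser cut of an unadjusted p under 0.05 by edgeR there were 2. The share of all genes at that cut was not computed. Asns came nearest, with a distal minus proximal difference of 0.48 on the log2 scale (SE 0.15, unadjusted p = 0.00688, edgeR adjusted p = 0.197). Herpud1 followed at 0.42 (SE 0.19, unadjusted p = 0.0417, edgeR adjusted p = 0.404). A distinct response of the segments was therefore not shown for either gene.

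The wider pathway was then read from 6 lists of related genes, which were also chosen with earlier results of these data known. In proximal colon the members past the threshold were mostly lower: 0 higher and 1 lower of 7 sensors, 2 and 2 of 11 transcription factors, 0 and 5 of 31 chaperones and folding enzymes, 0 and 4 of 23 degradation genes, 0 and 4 of 27 translocation and export genes, and 1 and 9 of the 34 tested of 35 Atf4 and amino acid genes. Over the 6 lists 3 of 133 genes were higher and 25 lower, where 5.52% and 6.17% of all genes were called in these directions and 11.7% in either. The sensors (1 of 7), export genes (4 of 27), chaperones (5 of 31) and degradation genes (4 of 23) lie not far above the last share. Nothing is read from their counts. The sensor count was 3 with DESeq2 and without control replicate 3, and 2 with RLE factors and without control 1, deficient 2 or deficient 6, and the export count was 7 with DESeq2. The list medians ran from -0.21 for the Atf4 genes to -0.01 for translocation and export, against 0.01 over all genes.

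Among the sensors Ern2 fell, from a median of 39.09 CPM (24.93 to 51.82) to 17.07 CPM (15.81 to 32.13), with a log2 fold change of -0.98 (SE 0.18, edgeR, adjusted p = 0.00165). Its widely expressed relative Ern1 was at 30.73 to 57.36 CPM in control and 25.78 to 54.04 CPM in deficient libraries. Among the transcription factors the membrane-bound Creb3l1 (-1.08, SE 0.16) and Creb3l4 (-0.67, SE 0.14) fell. Creb3l3, a relative best known for its control of lipid genes in liver and small intestine, rose from 1.269 to 12.78 CPM in control libraries to 64.14 to 113.5 CPM, a log2 fold change of 3.91 (SE 0.44). Atf3, a stress-induced factor, rose by 0.61 (SE 0.13). That call was lost among mice of 9 to 13 months (0.44, edgeR, adjusted p = 0.101).

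The folding enzymes that fell in proximal colon lay outside the 10 genes. Pdia5 and Txndc5, both of the disulphide isomerase family, fell, the former at -1.0 (SE 0.14) and the latter at -0.82 (SE 0.12) on the log2 scale. Dnajc10, a disulphide reductase of the ER, fell as well (-0.56, SE 0.08). Agr2, a disulphide isomerase relative needed for mucin production, fell from a median of 916.1 CPM to 561.6 CPM, a log2 fold change of -0.73 (SE 0.15). The fifth was Sil1, the nucleotide exchange factor of Hspa5, at -0.44 (SE 0.09). Their adjusted p-values by edgeR ran from 0.000117 for Pdia5 to 0.00333 for Sil1.

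In the degradation list Herpud1 was joined by Os9 (-0.32, SE 0.05), a lectin that hands over misfolded glycoproteins, and Edem3 (-0.44, SE 0.09), a mannose-trimming enzyme. Edem2 (-0.21, SE 0.06) also passed but lost the call in 17 of 24 alternatives. In the export list the retrieval receptors Kdelr3 (-0.73, SE 0.12) and Kdelr2 (-0.39, SE 0.08) and the cargo receptor Lman1 (-0.28, SE 0.07) fell. Sec24d, a coat protein of export vesicles, passed at -0.34 (SE 0.10) and lost the call in 16 of 24 alternatives.

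Among the Atf4 and amino acid genes Asns was joined by Nupr1 (-1.39, SE 0.18), Stc2 (-1.08, SE 0.19), Vldlr (-1.10, SE 0.20) and the tryptophanyl-tRNA synthetase Wars (-0.58, SE 0.11), with edgeR adjusted p from 7.7e-05 to 0.00189. Nupr1, a stress-induced nuclear protein, was at 130.2 to 308.1 CPM in control and 46.79 to 97.53 CPM in deficient libraries, without overlap. Of the list's other genes called lower, Aars lost its call in 15 and Yars in 2 of 24 alternatives. The only gene of this list that rose was Sesn2, an Atf4 target that restrains growth signalling, by 0.46 (SE 0.12). That call was lost among mice of 9 to 13 months (0.43, edgeR, adjusted p = 0.0649).

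**Figure D3:**
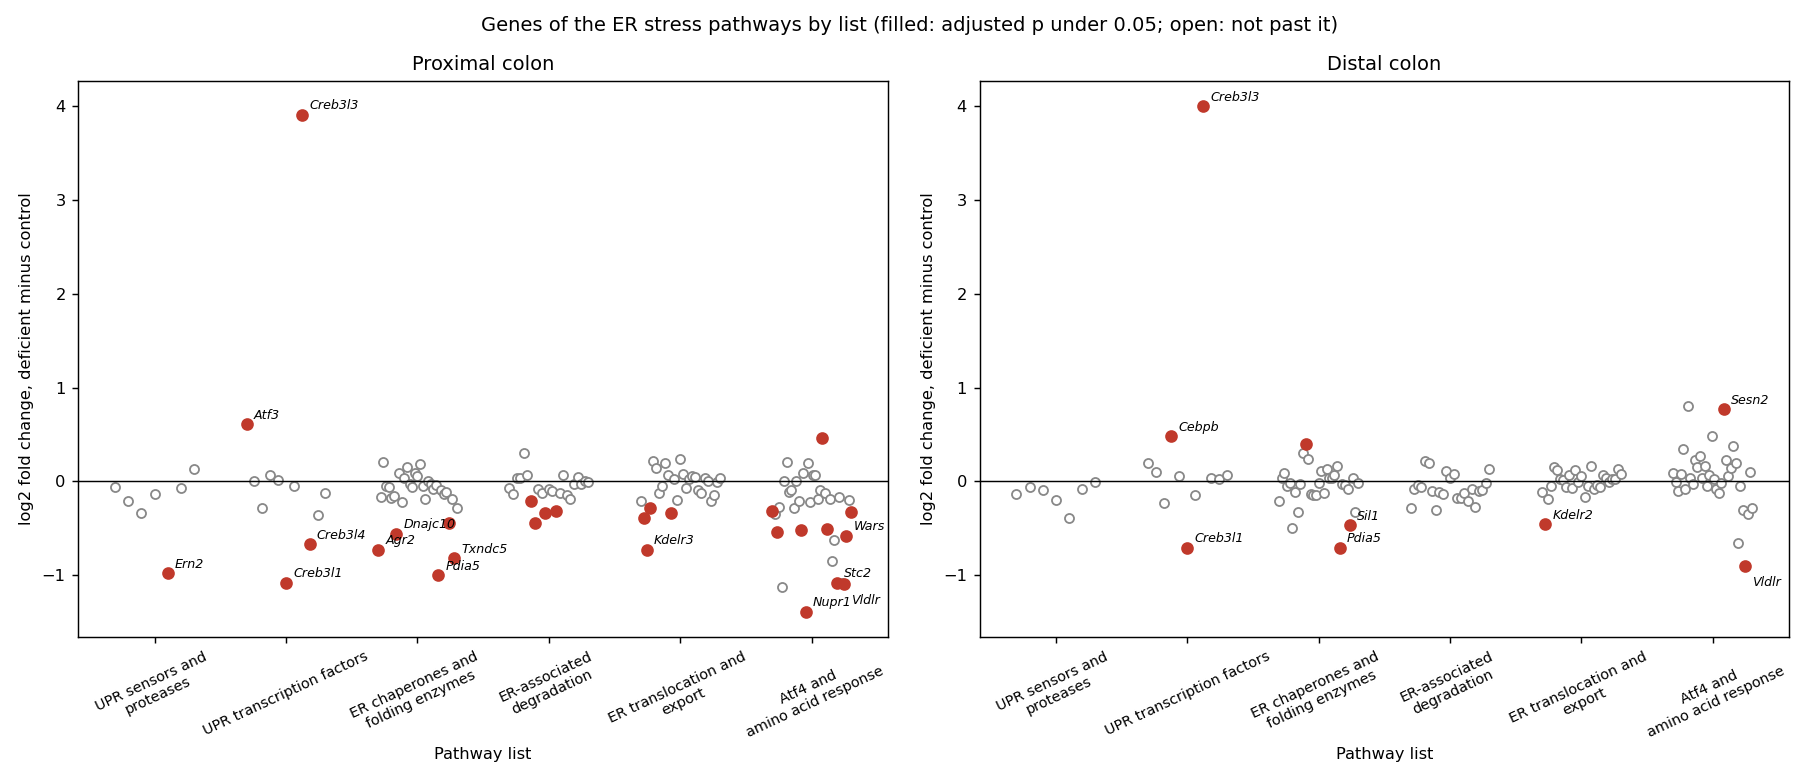
Log2 fold change of deficient against control mice (vertical axes) for the tested genes of 6 pathway lists (horizontal axes) in proximal and distal colon, filled red for an adjusted p under 0.05 and named where that change is among the clearest of its list. Creb3l3 stands at 3.91 and 4.0, while most filled points in proximal colon lie between Edem2 at -0.21 and Nupr1 at -1.39.

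The goblet cell markers that were called fell in both segments. In proximal colon 0 of 10 goblet markers rose and 5 fell, and their summed level was 5856 to 9202 CPM in control and 2799 to 6905 CPM in deficient libraries. In distal colon 3 of 10 fell, with sums of 25370 to 35520 and 13160 to 26200 CPM. None of these markers was at 0 in a whole group. Plasma cell markers, from another secretory cell type, summed to 3248 to 6916 CPM in proximal control and 6104 to 9141 CPM in proximal deficient libraries, with 0 of 8 passing. Their median log2 fold change there was 0.32, with 7 of 8 positive and 4 at an unadjusted p under 0.05 by edgeR. In distal colon their median was 0.18, with 0 of 8 called higher and 1 lower. Values of other marker sets stand beside these. In proximal colon 2 of 10 immediate early and heat shock genes and 1 of 6 fibroblast markers were called higher, and the 7 B cell markers, at a median log2 difference of -1.58, had 0 calls by edgeR and 4 at an unadjusted p under 0.05. In distal colon the 6 smooth muscle markers had a median of -0.71, 0 calls by edgeR and 3 at an unadjusted p under 0.05. The part of these cell types and of tissue handling in the results was not tested.

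In distal colon the 6 lists held 9 calls among 133 genes, 4 higher and 5 lower, or 6.77% beside 6.07% over all genes. The 3 chaperone calls were 1 among mice labelled male and 1 without control 4, deficient 4 and deficient 5. The 2 Atf4 list calls were 1 in both of these and 1 with a replicate block. By edgeR and by DESeq2, 0 of 7 sensors and 0 of 23 degradation genes passed, although 2 and 3 of them had an unadjusted p under 0.05 by edgeR. Creb3l3 rose by 4.0 (SE 0.38) and Creb3l1 fell, at -0.71 (SE 0.17), as in proximal colon, and Cebpb rose by 0.48 (SE 0.10). Pdia5 (-0.71, SE 0.17), Sil1 (-0.47, SE 0.08), Kdelr2 (-0.46, SE 0.09) and Vldlr (-0.90, SE 0.20) fell, and Sesn2 rose by 0.77 (SE 0.15). The oxidase Ero1lb passed at 0.40 (SE 0.10) but lost the call in 12 of 24 alternatives. Creb3l1 lost its call in 5, Vldlr in 4, Pdia5 in 3 and Cebpb in 1 of the 24. Without the 3 libraries of highest pancreas markers the calls of Cebpb, Creb3l1, Pdia5, Ero1lb and Vldlr were lost as well, with log2 fold changes of 0.47, -0.80, -0.73, 0.32 and -0.70.

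Across the 6 lists the genotype effect differed between segments for 1 gene, Nupr1, by edgeR in the 13 mice with both segments. It was at 55.66 to 158.8 CPM in distal control and 81.93 to 97.83 CPM in distal deficient libraries, and the difference of the effects was 1.45 (SE 0.23, edgeR, adjusted p = 0.0054). Its list, the Atf4 and amino acid genes, had a median difference of 0.36 against 0.01 over all genes. Differences were positive for 30 of its 34 genes, and 14 genes had an unadjusted p under 0.05 by edgeR. The shares of all genes for these 2 counts were not computed. Many genes lie under that cut, since Herpud1, at an unadjusted p = 0.0417 by edgeR, ranked 1814 of 17595. Nothing is read from the 2 counts. Without control replicate 3 the calls were 2 in this list and 1 among the transcription factors. There was 1 chaperone call among mice labelled male, and 1 export call without deficient replicate 7.

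The segments were next compared within mice. Most of the 10 genes were higher in distal colon in both genotypes. In 6 control mice 6 of the 10 genes were higher and 1 lower in distal colon, and in 7 deficient mice 7 were higher and 0 lower. Segments differed widely over all genes, with 43.8% of 16507 genes called in control mice and 45.1% of 16514 in deficient mice. Those called as higher in distal colon made up 21.5% and 22.7% of all genes tested. Both comparisons use the libraries of the genotype comparisons. The effective length deposited for a transcript was shorter than its full length by 249 bases throughout the distal libraries, but by 214.56 to 245.61 bases in proximal ones, so segment and its processing cannot be told apart.

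Pdia6 had by far the widest gap of the 10 genes. It was at 15.93 to 33.41 CPM (median 26.41) in proximal control and 112.7 to 196.7 CPM (median 148) in distal control libraries, with every distal library above every proximal one. The log2 fold change was 2.58 (SE 0.19, edgeR, adjusted p = 1.91e-05) in control mice and 2.69 (SE 0.15, edgeR, adjusted p = 1.92e-06) in deficient mice. In each comparison 2.08% of all genes had a larger increase. The transcript Pdia6-201 carried 77.72% to 95.21% of the gene's counts in proximal control and 98.65% to 99.44% in distal control libraries.

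The chaperones Hspa5 and Hsp90b1 were higher in distal colon by 0.88 (SE 0.13) and 0.82 (SE 0.14) in control mice and by 0.83 (SE 0.12) and 0.75 (SE 0.13) in deficient mice. Hspa5 was at 842.6 to 1554 CPM in distal control libraries, all above the 557.7 to 679.9 CPM of proximal control libraries. Sel1l was higher by 0.70 (SE 0.09) and 0.66 (SE 0.09). Herpud1 was higher by 0.79 (SE 0.11) in control and 1.21 (SE 0.14) in deficient mice. Each of these genes was higher in the distal piece of 6 of 6 control mice and of 7 of 7 deficient mice.

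Dnajb9 was higher by 0.74 (SE 0.12, edgeR, adjusted p = 0.00143) in control and 0.48 (SE 0.15, edgeR, adjusted p = 0.0265) in deficient mice. The second call was lost without deficient replicate 1 (0.42, adjusted p = 0.064), 2 (0.48, 0.0541), 3 (0.40, 0.0772), 6 (0.46, 0.063) or 7 (0.47, 0.0536). Xbp1 was higher by 0.42 (SE 0.09, edgeR, adjusted p = 0.00332) in deficient mice and at 0.22 (SE 0.09, edgeR, adjusted p = 0.0771) in control mice, where it was higher in 6 of 6 mice and DESeq2 called it (0.26, adjusted p = 0.0198). Atf4 and Ddit3 passed in neither genotype, with log2 fold changes of -0.08 and -0.18 in control and 0.02 and 0.17 in deficient mice.

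Asns ran the other way in control mice, lower in the distal piece of all 6 by a log2 fold change of -0.48 (SE 0.12, edgeR, adjusted p = 0.0108). In deficient mice it was at -0.01 (95% interval -0.22 to 0.21), higher in some mice and lower in others.

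**Figure D4:**
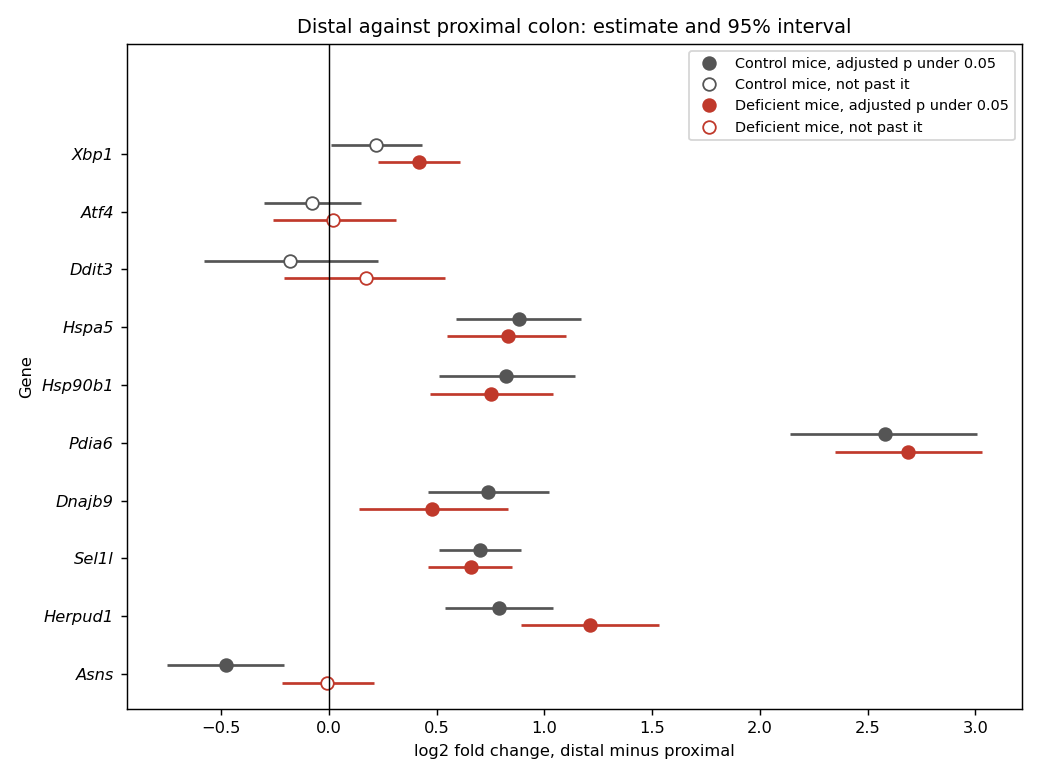
Log2 fold change of distal against proximal colon within mice (horizontal axis) for each of the 10 genes, in control mice (grey) and deficient mice (red), with 95% intervals and filled points for an adjusted p under 0.05. Pdia6 stands at 2.58 and 2.69, and Asns at -0.48 in control and -0.01 in deficient mice.

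Over the 6 lists 46 of 133 genes were higher and 19 lower in distal colon in control mice, and 61 and 7 in deficient mice. Of all genes tested, 21.5% were higher and 22.3% lower in control mice, and 22.7% and 22.4% in deficient mice. In control mice 16 of 31 chaperones and folding enzymes were higher and 3 lower in distal colon, and 12 of 23 degradation genes were higher and 1 lower. The Atf4 and amino acid list had 6 higher and 11 lower of 34. The medians of these lists were 0.34, 0.31 and -0.21, against -0.05 over all genes. Translocation and export had 7 higher and 1 lower of 27 (median 0.07), the transcription factors 2 higher and 3 lower of 11 (median -0.08) and the sensors 3 higher and 0 lower of 7 (median 0.23). The higher counts of the export and Atf4 lists and both counts of the transcription factors lie near the shares of all genes. Nothing is read from them. In deficient mice the chaperones stood at 18 higher and 1 lower (median 0.44), the degradation genes at 13 and 1 (0.30) and the export genes at 12 and 0 (0.20), against -0.03 over all genes. The Atf4 and amino acid list did not keep its direction there, with 9 higher and 2 lower (median 0.06). The other disulphide isomerases on the list changed less than Pdia6, with Pdia3 higher by 0.61 and Pdia4 by 0.34 in control mice. In control mice 6 of 10 goblet markers were also higher in distal colon and 1 was lower. Other marker sets moved too, with 6 of 7 B cell markers higher and 0 lower. Among epithelial markers 6 of 9 were higher and 1 lower, and among smooth muscle markers 0 of 6 were higher and 3 lower. The part of these cell types in the segment differences was not tested.

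Within groups Hspa5, Herpud1 and Asns were also compared with all others for likeness, among 11198 genes of at least 5 mean CPM. Likeness was Pearson's r of log2 CPM over 27 libraries after subtracting each group's mean. These values are descriptions, since all genes of a library share its depth and cell make-up. Hspa5 was most like Dnajc3 (r = 0.86), a co-chaperone of Hspa5, then Canx (0.79), the lectin chaperone calnexin, and Synj2bp (0.77). Herpud1 was most like Inpp5a (0.90), Atp6v1b2 (0.88) and Slc46a1 (0.87), an inositol phosphatase, a proton pump subunit and a folate transporter. Asns was most like Yrdc (0.74), Gm3776 (0.74) and Armc5 (0.71), with Spearman's rho of 0.66, 0.77 and 0.45.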

How the data were processed

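The 10 genes and the 6 pathway lists were chosen with earlier results of these data known. Per the submitters' processing notes, bcl2fastq 2.20.0.422, cutadapt 2.5, kallisto 0.46.2 and edgeR were used with GRCm38 (mm10). The authors deposited estimated counts, TPM and effective lengths (in bases) per transcript for each library, and a log2 CPM matrix for each segment. Settings, the matrices' scaling and the read layout: not given in the sources used here.

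Transcripts were joined to GENCODE M21 genes by identifier (116728 of 119414 matched, and the others held 0.902% to 1.27% of counts). Estimated counts were summed per gene and rounded. A second Ddit3 identifier held no counts and was dropped. Reads of near-identical genes are divided by kallisto's model.

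The edgeR 4.0.16 quasi-likelihood test (R 4.3.3, filterByExpr, TMM, Benjamini-Hochberg adjusted p under 0.05) was fitted over all genes for each comparison, genotypes without covariates and segments with mouse as a block. Fold changes come from each comparison's own TMM scaling. Each replicate was a separate mouse. The segments pair by mouse, per the labels, with correlations of deviations from -0.14 to 0.48. The deposited TPM were summed per gene and used only for levels between genes. The test was tried on simulated counts with known changes.

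The text names the 10 genes, list genes past the threshold in a genotype comparison (at most the 4 of smallest p, with Sil1 added after its values were seen), and the 3 genes most like Hspa5, Herpud1 and Asns. Ern1, Pdia3, Pdia4, Aars and Yars were likewise chosen after their values were seen. Alternatives were DESeq2 1.42.0, RLE factors, no filter, a transcript-length offset, the deposited log2 CPM with limma 3.58.1, subsets of mice, a replicate block and each replicate left out. A share of spliced Xbp1 was not computed, since the annotated Xbp1 transcripts have introns of 300 to 1313 bases and none with the short IRE1 intron.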

Additional observations from a re-analysis of the deposited data

Results flagged for a closer look

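Of 40 sets of values (10 genes in 4 groups), 5 had a library standing far from the others, where chance gives about 1 in 20. Xbp1 was at 380.9 CPM in distal control replicate 6, against 284 CPM in the next library. Atf4 was at 175.7 CPM in proximal control replicate 6, against 141.2 CPM. Sel1l was at 134.5 CPM in the same library, against 100.9 CPM. Ddit3 was at 23.78 CPM in proximal control replicate 1, against 14.68 CPM. Asns was at 57.94 CPM in proximal control replicate 4, against 41.35 CPM. Control replicate 6 and control replicate 1 are the mice that carry Villin1-Cre with a wild-type Foxa2 allele. Replicate 6, which is also Foxa1lox/lox, is the control mouse of low Foxa1.

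The genotype effect on Nupr1 differed between segments by 1.45 on the log2 scale, by a test of the difference itself. The log2 fold change was -1.39 in proximal and -0.05 in distal colon. This difference passed in each of 22 alternatives, from 1.27 to 1.58.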

How the results depend on the processing

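The proximal count of 2 genes and both its members held in each of 24 alternatives, and the segment counts ran from 7 to 8 in control and 6 to 7 in deficient mice. In distal colon 1 of the 10 genes (Dnajb9) passed with DESeq2 and 1 with a transcript-length offset, and 0 to 1 with 1 replicate left out. Over all genes, distal calls numbered 1588 with DESeq2 and 612 without control 4, deficient 4 and deficient 5. Calls for the difference between segments numbered 531 with DESeq2, 106 among mice of 9 to 13 months, 78 without those 3 mice, and 102 to 225 with 1 replicate left out. Numbered replicates of different genotypes are different mice. Correlations of their deviations ran from -0.13 to 0.30, and 1 of 7 proximal and 1 of 6 distal control libraries correlated best with its own number, so the numbers do not pair the mice. With a replicate block 2 genes passed in proximal and 0 in distal colon, and calls over all genes numbered 1696 and 689. The cause of these shifts was not tested.

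Values near 0 changed sign, and none of these was called. Proximal Atf4 was -0.01 with DESeq2, RLE or the length offset, -0.02 without a filter and -0.00 with the replicate block. It was -0.07 among mice labelled male, a subset that keeps deficient replicate 3, and -0.06 to 0.07 with 1 replicate left out. Distal Ddit3 was -0.03 with the length offset, -0.04 in the deposited log2 CPM and -0.07 to 0.10 with 1 replicate left out. Distal Asns was 0.03 in the deposited log2 CPM and 0.04 without the 3 pancreas-marker libraries, where Xbp1 was -0.00 and Pdia6 0.10. Distal Hspa5 was 0.00 against controls without Cre, and Herpud1 -0.02 with the replicate block. With 1 replicate left out, distal Pdia6 ran from -0.11 to 0.05 and Herpud1 from -0.03 to 0.21. The segment difference was 0.08, 0.05 and -0.05 among mice labelled male for Hspa5, Hsp90b1 and Pdia6. It was 0.02 and 0.06 without control 6 and deficient 3, and 0.04 and 0.07 without the pancreas-marker mice, for Hspa5 and Hsp90b1. With 1 replicate left out it ran from -0.10 to 0.04 for Hspa5, -0.13 to 0.04 for Hsp90b1, -0.01 to 0.26 for Pdia6 and -0.08 to 0.01 for Sel1l. Between segments of deficient mice Asns was 0.01 with DESeq2, RLE, mice labelled male or no replicate block, and 0.07 with the length offset. It was 0.06 without the pancreas-marker mice and -0.06 to 0.04 with 1 replicate left out. Atf4 was -0.02 without deficient 3 and -0.02 to 0.13 with 1 replicate left out. The alternatives without control 6 and deficient 3 and without the pancreas-marker libraries were chosen after seeing the data.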

Other observations

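Within groups, some of the 10 genes moved together over 27 libraries. Pearson's r of log2 CPM, after subtracting each group's mean, was 0.72 between Hspa5 and Hsp90b1, 0.70 between Ddit3 and Dnajb9, 0.64 between Hspa5 and Dnajb9, and 0.61 between Xbp1 and Herpud1. Pdia6 stood apart, with r from -0.26 to 0.22 with the other 9 genes. These pairs share libraries and depth and are given as descriptions. Distal control replicate 6 had the highest level of its group in 7 of the 10 genes, a count made after its values were seen.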
